A study of Mus musculus with 21 samples.

Results

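The ether lipid metabolism genes described here are the 44 mouse genes that carried the KEGG pathway term of that name in the annotation column of the gene table of the pre-treatment experiment, out of 33829 genes in that table. All 44 were found again by gene identifier among the 55385 genes of the table of the delayed treatment experiment. The annotation of the second table gave the term to 43 genes, 40 of them shared. Pafah1b2, Pla2g4b, Lpcat4 and Pla2g1b lacked it there, and Pla2g2a, Pla2g2e and Pla2g12b, which carried it only there, are not counted among the members. The pathway was chosen by measured values: 8 of its genes had an unadjusted p under 0.05 when MPTP treated mice with delayed irisin were compared with MPTP treated mice, so all comparisons that hold mice of that contrast are given as descriptions, and only comparisons of other mice are reported as tests.

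RNA of the midbrain was sequenced in 21 male C57BL/6 mice, labelled as 6 weeks old, in 7 groups of 3 and 2 experiments. MPTP is a toxin whose product in the brain blocks complex I of the respiratory chain and kills dopaminergic neurons, and irisin is the released part of the membrane protein FNDC5. In the pre-treatment experiment, control mice received ddH2O for 10 days, MPTP treated mice received ddH2O for 5 days and then MPTP at 30 mg/kg a day for 5 days, and pre-treated mice received irisin at 200 μg/kg a day for 5 days and then the same MPTP course. In the delayed experiment, control mice again received ddH2O for 10 days, a group given irisin alone had ddH2O for 5 days and then irisin for 5 days, MPTP treated mice had MPTP for 5 days and then ddH2O for 5 days, and the last group had MPTP for 5 days and then irisin for 5 days, with all injections intraperitoneal and at the same doses. According to the study's methods the tissue was nigral tissue taken out by hand after perfusion. The questions were whether irisin given before MPTP, after MPTP or without it goes with other transcript levels in this tissue. The mice of one number in different groups were different animals, and nothing in the labels says whether libraries were prepared together.

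Ether lipids are glycerophospholipids with an alkyl or vinyl ether chain in place of 1 ester chain. Their first steps take place in peroxisomes, where Gnpat and Agps make the ether bond, after which the head group is added in the endoplasmic reticulum. Plasmalogens, the vinyl ether form, are abundant in brain and especially in myelin. Platelet-activating factor (PAF) is an ether lipid signal that Lpcat enzymes make and PAF acetylhydrolases break down, and phospholipases A2, phospholipases D and lysophospholipid phosphodiesterases release fatty acids, phosphatidic acid and lysophosphatidic acid from ether lipids and other phospholipids. The KEGG term holds many enzymes that act on ester lipids as well, and it includes galactolipid enzymes of oligodendrocytes.

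The 9 libraries of the pre-treatment experiment held 66653781 to 75637604 counts and the 12 of the delayed experiment 48843585 to 77203445, of which the 44 genes took 0.200% to 0.332% and 0.243% to 0.346%. In every library far more genes had a count of 4 than of 3 or 5, by 3.03 to 3.36 times the mean of these neighbours in pre-treatment libraries and 3.72 to 4.71 times in delayed ones, so a low count may not be a number of independent fragments and no counting interval is given. Markers of dopaminergic neurons were present in all 21 mice, with Th, the rate-limiting enzyme of dopamine synthesis, at 21.3 to 63.3 CPM (counts scaled to the library total and by the TMM method) and the dopamine transporter Slc6a3 at 15.3 to 106 CPM. In 5 mice the summed level of 14 choroid plexus markers was 1420 to 1763 CPM, against 31.4 to 615 CPM in the other 16. These were MPTP mouse 2 of the pre-treatment experiment and, among delayed mice, control mice 1 and 2, MPTP mouse 3 and mouse 2 given MPTP and then irisin. In a bulk sample, fewer cells of a type and less RNA per cell cannot be told apart.

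Levels differed by several orders of magnitude between the 44 genes. On the FPKM scale, which corrects for gene length, 11 genes of the pre-treatment table and 13 of the delayed table had a mean of at least 10, and 11 in each were under 0.5. The highest were Pla2g7, which encodes the secreted PAF acetylhydrolase, with 67.8 ± 7.01 and 85.4 ± 2.87 FPKM (mean ± SD over 9 and 12 mice), and Enpp2, which encodes autotaxin, the secreted enzyme that makes lysophosphatidic acid, with 61.5 ± 29.9 and 91.1 ± 35.6 FPKM. Plpp3, a lipid phosphate phosphatase, had means of 61.0 and 57.8 FPKM, Pafah1b1 52.5 and 49.2 FPKM, and Pld3 37.9 and 60.9 FPKM. In the pre-treatment experiment all mice had more Pla2g7 and Plpp3 than the highest mouse had Pld3, and in the delayed experiment Pla2g7 lay above the ranges of Pld3, Plpp3 and Pafah1b1, while the other ranges among these 5 genes that are neighbours in mean overlapped. Pafah1b1 is LIS1, the non-catalytic subunit of the intracellular PAF acetylhydrolase and a partner of dynein, and Pld3 is a lysosomal exonuclease despite its name.

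**Figure D1:**
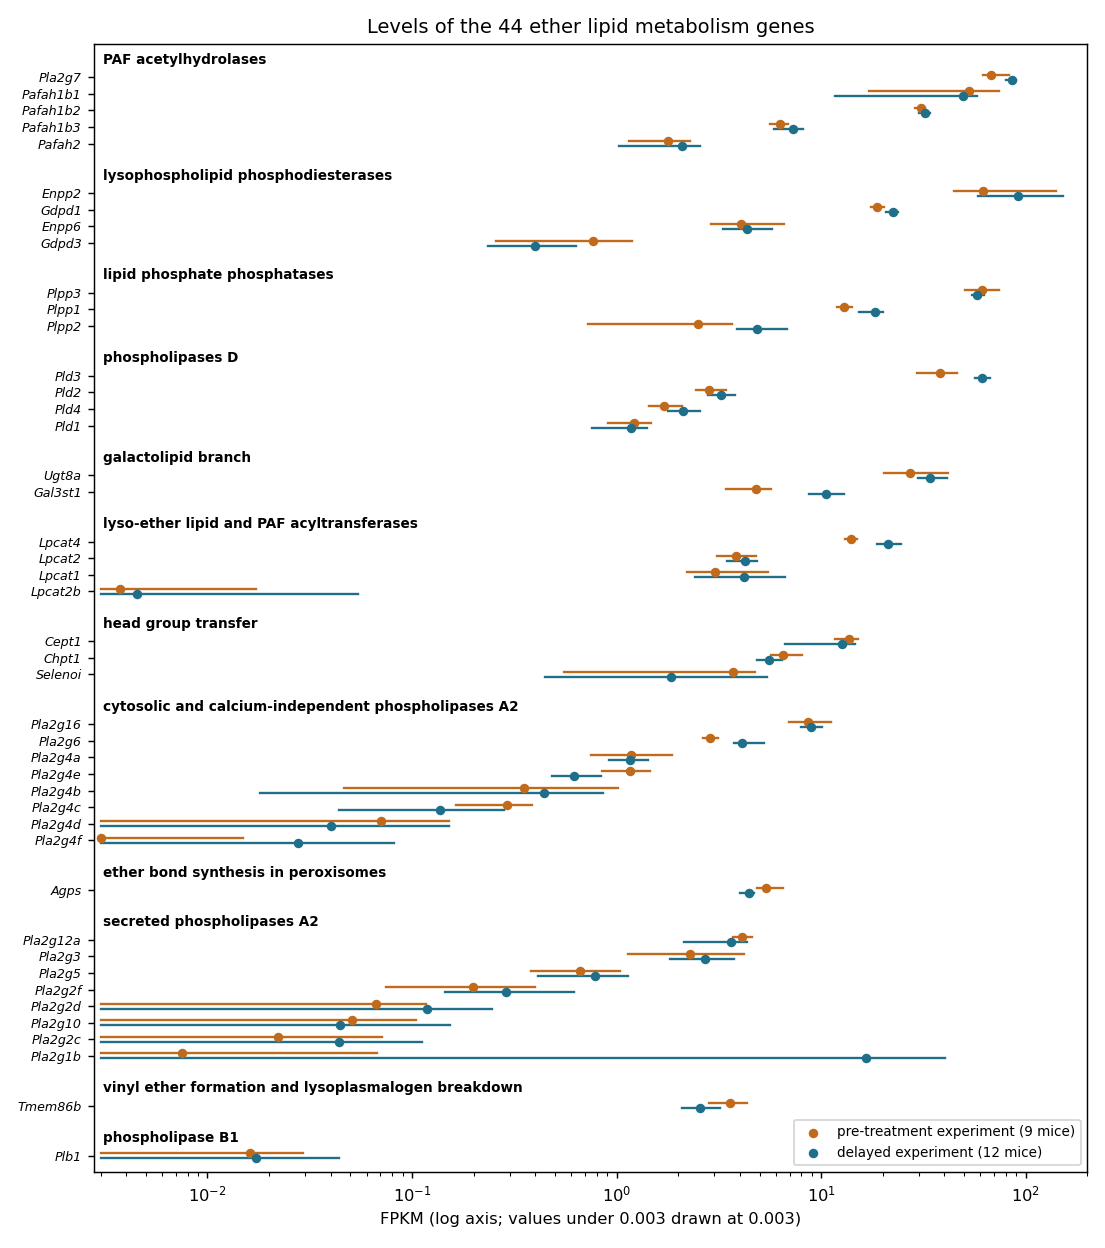
Mean FPKM (points, log axis) and range over mice (lines) of the 44 genes, by role, in the 9 mice of the pre-treatment experiment and the 12 mice of the delayed experiment. Pla2g7, Enpp2, Plpp3, Pafah1b1 and Pld3 have the highest means in both experiments, and Pla2g1b has a mean of 16.5 FPKM in the delayed experiment and 0.00749 FPKM in the other.

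The enzymes that build ether lipids were expressed at middle levels. Agps, which makes the ether bond, had 5.34 FPKM in the pre-treatment experiment and 4.43 FPKM in the delayed one. The head group enzymes Cept1, Chpt1 and Selenoi, which attach choline or ethanolamine, had 13.7, 6.53 and 3.71 FPKM in the pre-treatment experiment and 12.6, 5.58 and 1.85 FPKM in the delayed one. Tmem86b, which cleaves lysoplasmalogens, had 3.57 and 2.55 FPKM. Among the acyltransferases Lpcat4 was the highest, with 13.97 and 21.3 FPKM, followed by Lpcat2 with 3.83 and 4.23 FPKM and Lpcat1 with 3.01 and 4.19 FPKM, while Lpcat2b had at most 10 counts in any mouse. The galactolipid enzymes Ugt8a, which makes galactosylceramide, and Gal3st1, which adds sulfate to it, had 27.2 and 4.80 FPKM in the pre-treatment experiment and 34.1 and 10.6 FPKM in the delayed one. Of the cytosolic phospholipases A2, Pla2g16 was the highest with 8.63 and 8.94 FPKM, and phospholipase B1, Plb1, lay at 0.0161 and 0.0173 FPKM. The filter on low counts kept 41 of the 44 genes for the pre-treatment fit and 42 for the delayed fit. Lpcat2b, Pla2g1b and Pla2g4f were left out of the first fit and Lpcat2b and Pla2g10 out of the second.

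Irisin given alone was compared with ddH2O to ask what it did without MPTP. Lpcat1, an acyltransferase that acylates lysophosphatidylcholine and can acetylate lyso-PAF, fell by 1.20 on the log2 scale and was the 1 member called by edgeR, while DESeq2 called 3 (0.722% of all genes), namely Lpcat1, Pld3 and Pla2g4d. Its gene (ENSMUSG00000021608) lies at chr13:73467197-73516422 on the forward strand of GRCm38. The 216 bases before its first annotated base are shown, since this is the member on which the test turned, from RefSeq for GRCm38.p6, at chr13:73466981-73467196, forward strand, with the 1 match to the GC box letters GGGCGG, on either strand, in capitals.

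Lpcat1: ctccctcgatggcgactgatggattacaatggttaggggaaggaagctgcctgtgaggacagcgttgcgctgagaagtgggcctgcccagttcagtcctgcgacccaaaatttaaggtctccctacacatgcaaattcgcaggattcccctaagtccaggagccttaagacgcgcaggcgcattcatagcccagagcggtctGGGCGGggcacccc

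The window held 57.9% G or C, against a median of 51.9% over 32851 gene windows of this length, and 11 CpG pairs against a median of 5. These windows were the first 216 bases of each promoter entry and were not cut at each gene's own first annotated base. The GC box letters were found in 27.9% of all windows. The letters TATAAA were not found in the Lpcat1 window on either strand and were found in 9.80% of all windows. A match of letters is a description of the window and not a site. A RefSeq promoter entry was matched for 39 of the 44 genes.

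In the delayed experiment, Lpcat1 was at 28.5, 34.8 and 33.5 CPM in the control mice and at 13.9, 15.2 and 13.2 CPM in the mice given irisin alone. All 3 mice with irisin lay below all 3 controls. None of these 6 mice was in the contrast behind the choice of the pathway, although the fit took its estimate of the spread from all 12 mice of the experiment. The log2 fold change was -1.20 ± 0.12 (SE), and the adjusted p was 0.00241 (edgeR, quasi-likelihood, adjusted by the Benjamini-Hochberg method over 21922 genes). Over 15 alternative settings the log2 fold change ranged from -1.28 to -0.95 and the adjusted p from 4.45e-15 to 0.0596, past the threshold in 14. The exception left out the 4 mice of this experiment with choroid plexus markers over 1000 CPM, which leaves 1 control mouse, control mouse 3, and gave -1.25 with an adjusted p of 0.0596.

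Of the 42 members tested in the comparison of irisin alone with control, Lpcat1 alone passed the adjusted threshold, where 0.109% of all genes did. At an unadjusted p under 0.05 there were 4 members, all lower, against 8.97% of all genes. Besides Lpcat1 these were Pld3 and Pld2, which encodes a phospholipase D that makes phosphatidic acid, and the cytosolic phospholipase A2 Pla2g4d. Pld3 was at 223, 214 and 223 CPM in controls and 196, 185 and 187 CPM with irisin (log2 fold change -0.21 ± 0.05, edgeR adjusted p = 0.232), and DESeq2 called it. Pld2 was at 25.4, 22.4 and 24.3 CPM in controls and 19.9, 20.7 and 21.04 CPM with irisin (-0.23 ± 0.09, edgeR adjusted p = 0.519). For both genes the groups did not overlap, and the share of all genes without overlap was not counted. Pla2g4d rested on 31, 20 and 19 counts in controls and 4, 0 and 0 with irisin, and DESeq2 called it as well. The median log2 fold change of the 42 members was -0.03, beside -0.00 for all genes tested, and 17 members were higher and 25 lower. The other members with a mean of at least 0.5 FPKM and the lowest values were Selenoi (-1.82) and Enpp2 (-0.76), whose groups overlapped, and the highest were Pld1 (0.26), Lpcat2 (0.24) and Pafah1b3 (0.15), none of which passed the adjusted threshold.

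In the pre-treatment experiment, the comparison of MPTP with control asked what the toxin did without irisin. No member of 41 passed edgeR's adjusted threshold, where 0.0221% of all genes did, and 5 had an unadjusted p under 0.05, against 6.03% of all genes. DESeq2 called 1 member, Pla2g10 (0.461% of all genes). The median log2 fold change was -0.01, beside -0.00 for all genes, with 18 members higher and 23 lower. Lpcat1 was at 28.5, 11.8 and 23.5 CPM in controls and 15.6, 13.2 and 12.1 CPM with MPTP. Control mouse 2 lay below all 3 MPTP treated mice, so the groups overlapped, and the log2 fold change was -0.64 ± 0.27 (edgeR adjusted p = 0.823). As a description, with a division seen in the values and with the 6 mice behind the choice of the pathway included, 13 of the 21 mice lay at 11.7 to 15.6 CPM and 8 at 23.5 to 34.8 CPM. The 8 were the 3 controls and 3 MPTP treated mice of the delayed experiment and control mice 1 and 3 of the pre-treatment experiment, and 4 mice without irisin were among the 13.

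**Figure D2:**
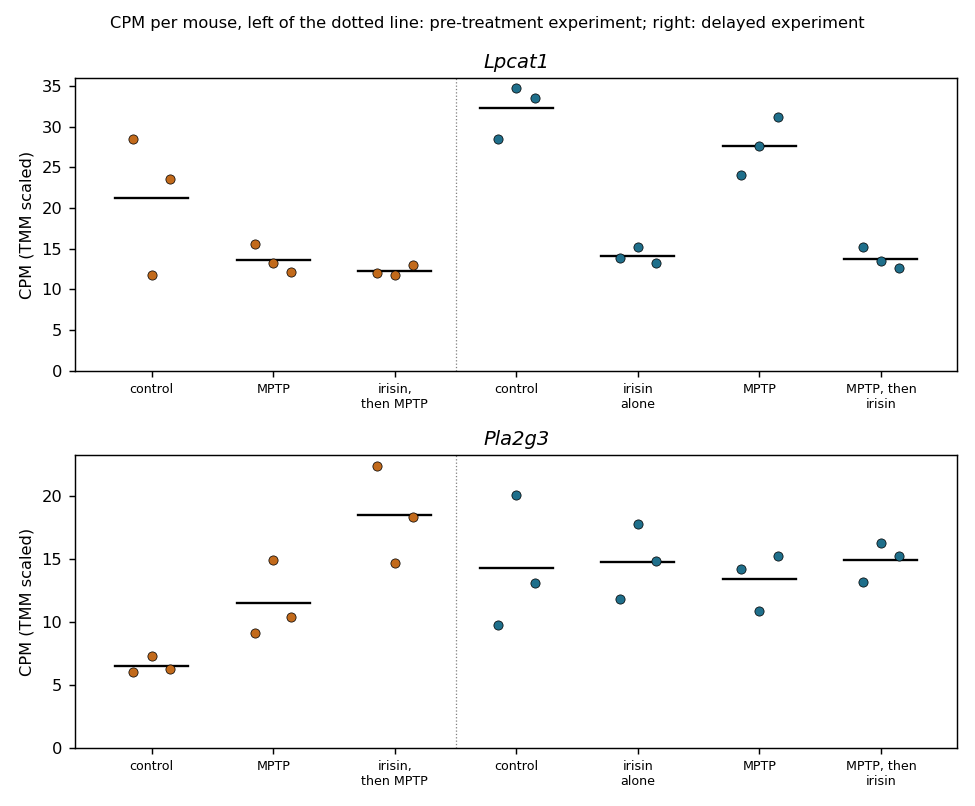
Lpcat1 and Pla2g3 in each of the 21 mice (points, TMM scaled CPM) with group means (bars), the pre-treatment experiment left of the dotted line. Lpcat1 lies at 11.7 to 15.6 CPM in 13 mice and at 23.5 to 34.8 CPM in 8, and Pla2g3 of the pre-treatment experiment runs from 5.98 CPM in a control mouse to 22.4 CPM in a mouse given irisin and then MPTP.

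Pla2g3, which encodes the secreted group III phospholipase A2, was the member with the clearest order over the pre-treatment groups. It was at 5.98, 7.27 and 6.25 CPM in controls, 9.12, 14.9 and 10.4 CPM with MPTP, and 22.4, 14.7 and 18.3 CPM with irisin and then MPTP. All controls lay below all mice of the other groups, while MPTP mouse 2 lay above the lowest pre-treated mouse. The log2 fold change was 0.82 ± 0.21 for MPTP against control (edgeR adjusted p = 0.741), 0.69 ± 0.21 for irisin before MPTP against MPTP (0.584) and 1.51 ± 0.22 for irisin before MPTP against control (0.0701). The last value ranged over 15 alternatives from 0.9999 to 1.64, with adjusted p from 7.22e-08 to 0.273, and passed in 1, DESeq2. These comparisons share groups of mice. In the delayed experiment Pla2g3 lay between 9.71 and 20.1 CPM in all 12 mice, the groups overlapped, and the control of that experiment had a higher mean (14.3 ± 5.28 CPM, SD, n = 3) than that of the pre-treatment experiment (6.501 ± 0.681 CPM), a gap between tables made separately that was not tested. Pla2g3, at chr11:3488284-3499350, overlaps Inpp5j on the other strand, a phosphatase gene of the inositol lipids. Inpp5j was at 37.3, 39.1 and 39.8 CPM in controls, 35.7, 45.4 and 43.0 CPM with MPTP and 46.9, 43.4 and 42.8 CPM with irisin and then MPTP, so the pre-treated mice lay above all controls for this gene too (0.20 ± 0.10, edgeR adjusted p = 0.741). Whether the counting used the strand is not given in the sources used here, so reads of these genes may not be told apart. On the log2 scale Pearson's r between both genes was 0.81 over the 9 mice of the pre-treatment experiment (exact permutation p = 0.0114, two-sided, 0.0228 after Benjamini-Hochberg adjustment over 2 relations) with a Spearman's rho of 0.78 (exact permutation p = 0.0172), and r was 0.89 without the 2 mice farthest from the median of Inpp5j. Over the 12 mice of the delayed experiment r was -0.09 (permutation p = 0.776, adjusted 0.776) and rho 0.15 (permutation p = 0.643), and r was 0.24 without the 2 farthest mice. These relations were chosen after the values of this and other overlapping gene pairs were seen, which the adjustment does not cover. Mice were permuted across the groups, so the p-values hold the differences between the groups. They are no test of a relation within a group, and no support is drawn from them.

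The other members at an unadjusted p under 0.05 for MPTP against control in the pre-treatment experiment were Pla2g7, Plb1 and Pla2g10. Pla2g7 was at 234, 279 and 227 CPM in controls and 227, 200.3 and 205 CPM with MPTP, with a narrow gap between the groups (-0.23 ± 0.09, edgeR adjusted p = 0.823). Plb1 had 5, 7 and 0 counts in controls and 19, 27 and 19 with MPTP (2.33 ± 0.92, edgeR adjusted p = 0.823). Pla2g10, a secreted phospholipase A2, was listed at 0 in all 3 MPTP treated mice and had 10 to 13 counts in controls and 7 to 10 with irisin and then MPTP. Since a few fragments can give such counts, no fold is given, and edgeR's adjusted p was 0.485 against control and 0.277 for irisin before MPTP against MPTP, where DESeq2 called it in both. The members' median log2 fold change was also -0.01 with Pla2g10 set to the limit that 3 counts a library allow. Of members with a mean of at least 0.5 FPKM, the other largest values were Plpp2 (0.62) and Enpp2 (0.51) upward, and Pafah1b1 (-0.34) and Pla2g4e (-0.30) downward, with overlapping groups.

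Irisin before MPTP was compared with MPTP to ask whether pre-treatment altered the levels under the toxin. No member passed edgeR's adjusted threshold (0.0707% of all genes), and 4 had an unadjusted p under 0.05 (6.22% of all genes), Pla2g3 and Pla2g10 higher and Pld2 and Enpp2 lower. DESeq2 called 1 member, Pla2g10 (0.859% of all genes). Pld2 was at 20.0, 24.0 and 20.4 CPM with MPTP and 19.0, 17.1 and 18.8 CPM with irisin and then MPTP (-0.23 ± 0.09, edgeR adjusted p = 0.759). The median log2 fold change was -0.02, with 15 members higher and 26 lower. The largest other values among members with a mean of at least 0.5 FPKM were Plpp2 (-0.72), Pafah1b1 (-0.59), Gdpd3 (0.27) and Pla2g4e (0.26).

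Against control, irisin before MPTP again gave no member past edgeR's adjusted threshold (0.0707% of all genes) and 6 at an unadjusted p under 0.05 (7.12% of all genes), 2 higher and 4 lower. DESeq2 called 1 member, Pla2g3 (0.957% of all genes). The higher members were Pla2g3 and Plb1, which had 11, 24 and 27 counts with irisin and then MPTP (2.22 ± 0.92, edgeR adjusted p = 0.668). Lpcat1 was at 11.97, 11.7 and 12.9 CPM in the pre-treated mice (-0.80 ± 0.27, edgeR adjusted p = 0.593), with control mouse 2, at 11.8 CPM, within that range. Lpcat2, the acyltransferase of inflammatory cells that makes PAF, was at 15.8, 18.8 and 14.8 CPM in controls and 14.7, 11.8 and 11.98 CPM in pre-treated mice (-0.36 ± 0.13, edgeR adjusted p = 0.619). Pla2g16, a phospholipase A and acyltransferase of adipose tissue, was at 59.4, 82.2 and 63.1 CPM and at 57.5, 56.5 and 49.7 CPM (-0.32 ± 0.12, edgeR adjusted p = 0.648), and Pla2g7 gave -0.24 ± 0.09 (0.650). For these 3 genes the lowest control lay only narrowly above the highest pre-treated mouse. The values were 14.8 and 14.7 CPM for Lpcat2, 59.4 and 57.5 CPM for Pla2g16, and 227 and 224 CPM for Pla2g7. Control mouse 2 was the highest mouse for each, and the share of all genes without overlap was not counted. The median was -0.05, beside 0.00 for all genes, with 14 members higher and 27 lower, and the lowest and highest remaining members with a mean of at least 0.5 FPKM were Pafah1b1 (-0.93), Ugt8a (-0.46), Pafah2 (0.31) and Pla2g5 (0.30).

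**Figure D3:**
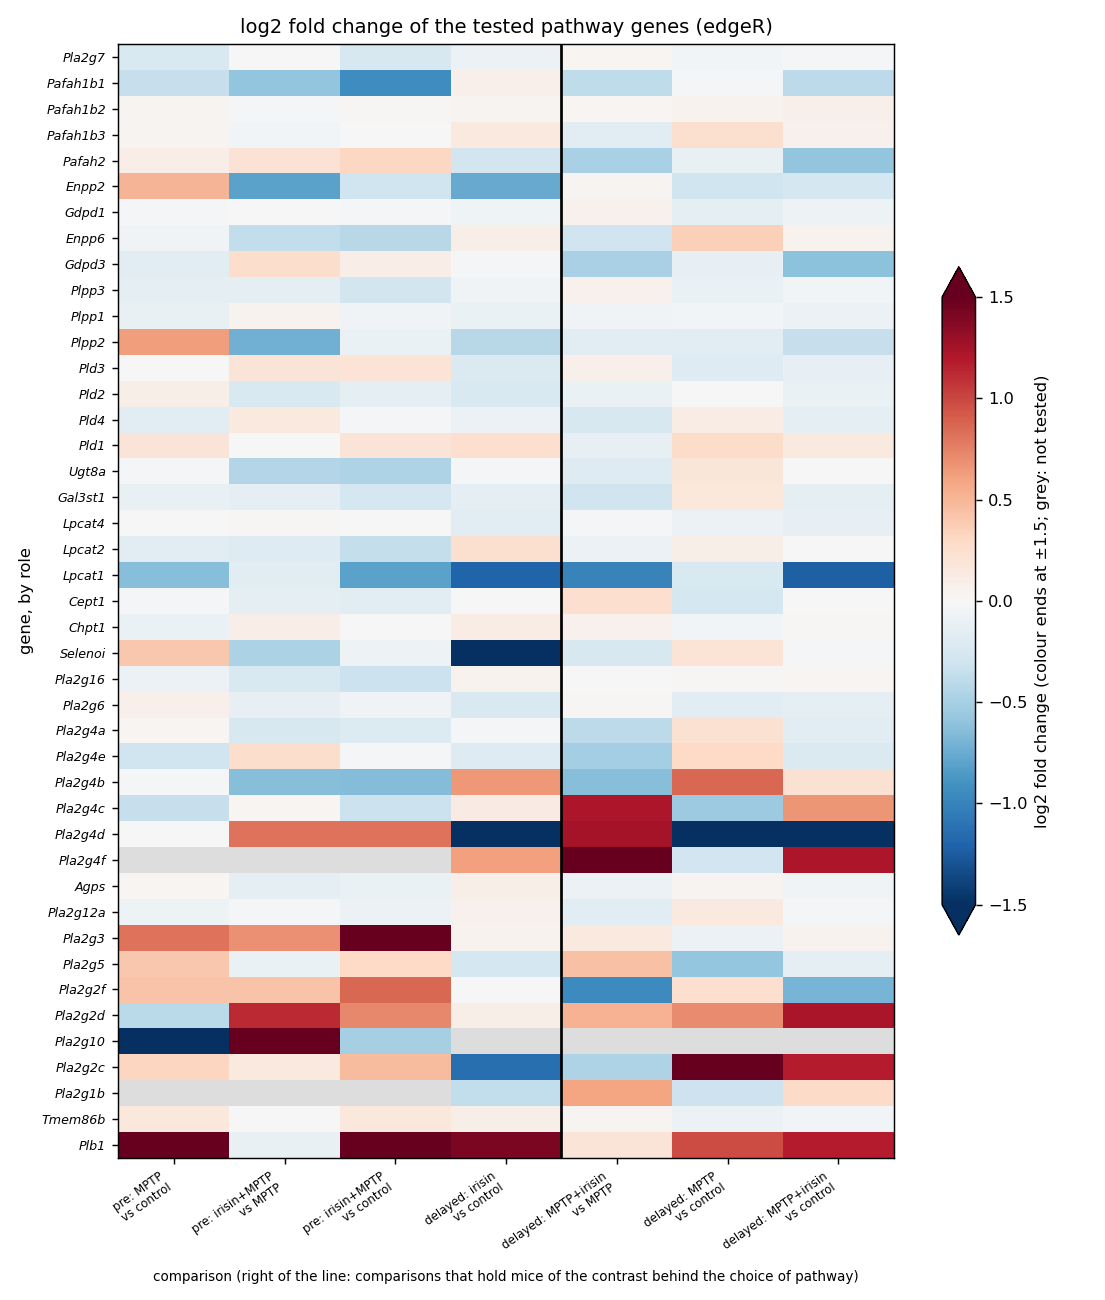
Log2 fold changes (colour, ending at ±1.5) of the tested members by role in the 7 comparisons, with the 3 comparisons that hold mice of the contrast behind the choice of the pathway to the right of the line. Lpcat1 runs from -1.23 to -0.16 over the columns, which share groups of mice, and most other genes with more than a few counts lie close to 0.

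The contrast behind the choice of the pathway, delayed irisin after MPTP against MPTP, held 8 members at an unadjusted p under 0.05 of 42 (3.90% of all genes), 7 lower and 1 higher, and none past the adjusted threshold (0.00456% of all genes, which is 1 gene). DESeq2 called 1 member, Lpcat1 (0.169% of all genes). These values chose the pathway, and no support is drawn from them. Lpcat1 was at 24.1, 27.6 and 31.2 CPM with MPTP and 15.2, 13.5 and 12.6 CPM with MPTP and then irisin, a log2 difference of -1.01, beside -1.20 for irisin alone against control in other mice. The other lower genes were Pla2g2f, a secreted phospholipase A2 (-0.96, on 22 to 105 counts), Pla2g4e, a cytosolic phospholipase A2 (-0.51), Pafah2, the cytosolic PAF acetylhydrolase (-0.48), Pla2g4a, the cytosolic phospholipase A2 that releases arachidonic acid (-0.40), and Enpp6 and Gal3st1 (each -0.30). Pla2g4c, a membrane-anchored cytosolic phospholipase A2, was higher (1.21, on 0.196 to 1.20 CPM in these mice). Over all mice of the delayed experiment, Pafah2 was at 4.18 CPM in 1 and at 7.06 to 10.5 CPM in the other 11, so 1 mouse may weigh on its value. Just inside the threshold, Pla2g2f was at 1.72, 0.625 and 0.705 CPM with MPTP and 0.572, 0.589 and 0.405 CPM with delayed irisin, and Gal3st1 at 29.4, 25.9 and 27.5 CPM and 21.3, 22.1 and 23.9 CPM. Just outside it were Pafah1b3 (-0.17) and Pld4, which was at 9.17, 9.504 and 8.70 CPM and 7.16, 8.22 and 7.72 CPM (-0.24).

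The 8 genes have different roles: 4 are cytosolic or secreted phospholipases A2, and Lpcat1, Pafah2, Gal3st1 and Enpp6 serve acyl transfer, PAF breakdown, galactolipid sulfation and the cleavage of choline lysolipids. In the tests on other mice these genes had no common direction. For irisin before MPTP against MPTP, Pla2g4e was at 0.26, Pafah2 at 0.21, Pla2g2f at 0.43 and Pla2g4c at 0.03, while Pla2g4a was at -0.24, Enpp6 at -0.37, Gal3st1 at -0.15 and Lpcat1 at -0.16 on the log2 scale. For irisin alone against control, Lpcat1 was at -1.20, Pafah2 at -0.27, Pla2g4e at -0.19 and Gal3st1 at -0.13, and Pla2g4a at -0.02, Pla2g2f at -0.00, Enpp6 at 0.09 and Pla2g4c at 0.13. Among the 8, Lpcat1 alone passed the adjusted threshold in a tested comparison. Of members with a mean of at least 0.5 FPKM, the highest in the contrast behind the choice were Pla2g1b (0.60), Pla2g5 (0.44) and Cept1 (0.25).

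The remaining comparisons of the delayed experiment share mice with that contrast, so their counts are descriptions and no support is drawn from them. Lpcat1, Pafah2 and Enpp6, named here, were among the 8 genes of that contrast. For MPTP against control, no member passed the adjusted threshold in edgeR (0.132% of all genes), DESeq2 called 1, Pld3 (0.873% of all genes), and 5 had an unadjusted p under 0.05 (8.33% of all genes). These were Pld3 (-0.20), Gdpd1 (-0.14) and Pla2g4d lower and Enpp6 (0.36) and Pafah1b3 (0.24) higher. For MPTP and then irisin against control, 1 member, Lpcat1 (-1.23), was past the adjusted threshold (0.109% of all genes) and 3 were at an unadjusted p under 0.05 (9.31% of all genes), the others being Pafah2 (-0.59) and Pld3 (-0.12). DESeq2 called 1 member there as well (0.718% of all genes). Lpcat1 differed from control by -0.22 with MPTP, and the MPTP treated mice overlapped the controls. The largest other values against control, among members with a mean of at least 0.5 FPKM over the 21 mice, were Pla2g5 (-0.58), Pla2g1b (-0.31), Enpp2 (-0.30), Pla2g4e (0.29) and Pld1 (0.28) for MPTP, and Gdpd3 (-0.61), Pla2g1b (0.28), Pld1 (0.15) and Pafah1b2 (0.08) for MPTP and then irisin.

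By role, some groups had all members on one side of 0 in a tested comparison. Both galactolipid enzymes had values below 0 in all 4, which share mice within the pre-treatment experiment, with medians of -0.07, -0.30, -0.36 and -0.08 for MPTP, irisin before MPTP against MPTP and against control, and irisin alone. All 3 tested acyltransferases were below 0 for MPTP (-0.64 to -0.01), and all 3 head group enzymes for irisin before MPTP against control (-0.16 to -0.00). All 3 lipid phosphate phosphatases were below 0 for irisin alone (-0.41 to -0.05) and for irisin before MPTP against control (-0.27 to -0.05). In these 4 pairings of 1 of the last 3 roles with a comparison, 1 value, that of Lpcat1 for MPTP against control, had an unadjusted p under 0.05. In other comparisons, where the acyltransferases were not all on one side, Lpcat1 and Lpcat2 had such values too, as given above. The 4 phospholipases D had medians of 0.05, 0.07, 0.08 and -0.15 in the order given for the galactolipid enzymes. At an unadjusted p under 0.05, Pld2 was lower in the second, and Pld2 and Pld3 were lower in the last. The 7 secreted phospholipases A2 tested had medians of 0.33, 0.43, 0.47 and -0.00 in the same order, and most of their members had under 1 FPKM. Agps was at 0.03, -0.13, -0.10 and 0.09 on the log2 scale, and Tmem86b at 0.16, -0.01, 0.15 and 0.09. The adjusted p of both genes was over the threshold in each of these comparisons. A list of 23 genes without the KEGG term was also examined, not all of them ether lipid genes. It held Gnpat, Far1 and Far2, which supply the fatty alcohol, and Pex7, the receptor that imports Agps. It also held Lpar1 and Ptafr, receptors for lysophosphatidic acid and PAF, and others such as Jmjd7 and Gdpd5. None of the 23 passed the adjusted threshold in any of the 7 comparisons. In each tested comparison 1 of these 23 had an unadjusted p under 0.05. It was lower for MPTP (6.03% of all genes) and higher for irisin before MPTP against MPTP (6.22%). For irisin before MPTP against control (7.12%) and for irisin alone (8.97%) it was lower.

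Ugt8a, Gal3st1 and Enpp6 are known from oligodendrocytes. Ugt8a was at 118, 219 and 124 CPM in controls of the pre-treatment experiment, 126, 170 and 162 CPM with MPTP and 124, 110 and 102 CPM with irisin and then MPTP. Control mouse 2 was the highest of the 9 mice for Ugt8a and for Enpp6, at 48.8 CPM, and also in the summed level of 12 mature oligodendrocyte markers, at 14768 CPM against 8875 to 11699 CPM in the other 8. It was not the highest in the sum of 8 markers of precursors and newly formed oligodendrocytes. There it was at 659 CPM, below MPTP mice 2 and 3 at 994 and 1025 CPM. Most of the sum in MPTP mice 2 and 3 was Bcas1, at 743 and 754 CPM, against 269 CPM in MPTP mouse 1. The median log2 fold change of the 8 markers was 0.04 for MPTP against control. The log2 fold change of Ugt8a was -0.44 ± 0.23 for irisin before MPTP against MPTP (edgeR adjusted p = 0.874) and -0.46 ± 0.23 against control (0.742). In the delayed experiment the sum of mature markers was 11268 to 13600 CPM with MPTP and 11206 to 11859 CPM with MPTP and then irisin, beside Gal3st1 and Enpp6 lower in the latter. The sum for precursors and newly formed oligodendrocytes was 694 to 733 CPM and 676 to 998 CPM in these groups. No marker passed the adjusted threshold in any comparison, and the part of oligodendrocytes in these values was not tested.

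Enpp2 was highest in the mice with the most choroid plexus marker RNA. In the 5 mice with a marker sum over 1000 CPM it was at 781 to 987 CPM, and in the other 16 at 289.6 to 519.5 CPM. In these 5 mice Ttr, the main secreted protein of the choroid plexus, was at 1265 to 1550.1 CPM. In the pre-treatment experiment, MPTP mouse 2 had 897 CPM of Enpp2 and a marker sum of 1763 CPM, while the other 8 mice had 289.6 to 435 CPM and 31.4 to 57.3 CPM. Its value sets most of the log2 fold change of -0.81 ± 0.34 for irisin before MPTP against MPTP (edgeR adjusted p = 0.780), which was -0.19 without it. Among the other 8 mice, control mouse 2 was the highest in Enpp2, at 435 CPM with a choroid plexus sum of 39.7 CPM. That mouse also had the highest sum of mature oligodendrocyte markers, 14768 CPM. The part of oligodendrocytes in Enpp2 was not tested. In the delayed experiment the 3 mice given irisin alone had 380.3, 403 and 516 CPM and marker sums of 86.0, 88.4 and 320.4 CPM, and the controls had 931, 781 and 489 CPM with sums of 1567, 1419.8 and 276 CPM. Of the 14 choroid plexus markers, 5 were lower at an unadjusted p under 0.05 in this comparison (median -1.87), against 8.97% of all genes. None passed the adjusted threshold. The Enpp2 difference, -0.76 ± 0.38 (edgeR adjusted p = 0.582), cannot be told apart from the amount of choroid plexus RNA in these libraries.

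**Figure D4:**
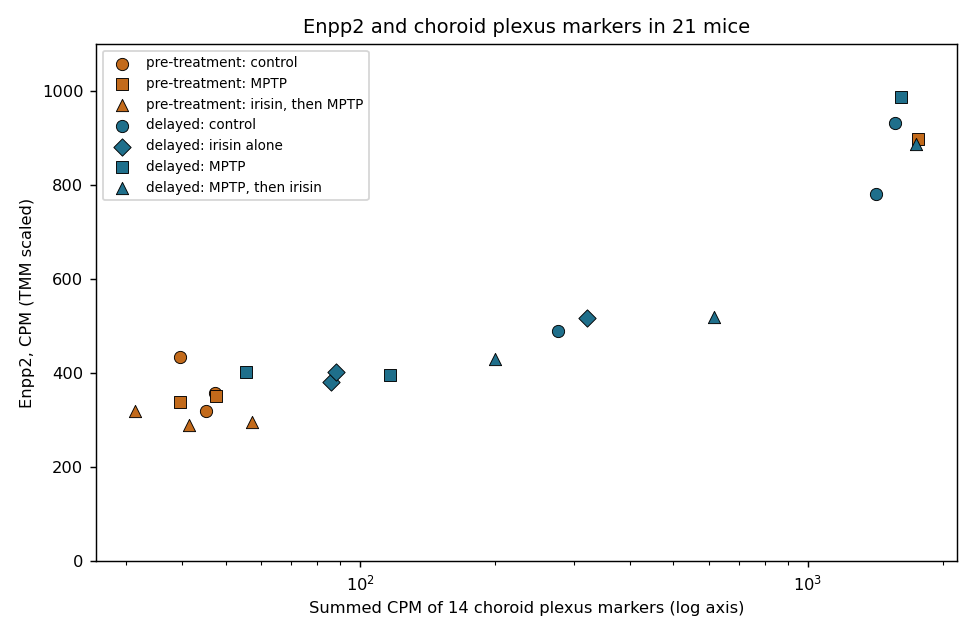
Enpp2 (TMM scaled CPM) against the summed CPM of 14 choroid plexus markers (log axis) in the 21 mice, with symbols for groups and colours for experiments. The 5 mice at the upper right, from 4 groups, have 781 to 987 CPM of Enpp2, and the other 16 have 289.6 to 519.5 CPM.

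Some members varied between mice in steps, which are described here after the values were seen. A step is a gap of at least 1.5-fold between neighbouring mice in a gene with a mean of at least 5 CPM, with 0.5 CPM added. Among members of the pre-treatment experiment 3 of 30 had one (9.37% of all genes), and among those of the delayed experiment 7 of 31 (7.90% of all genes), so the share of members with a step was near that of all genes in the first. Selenoi, the ethanolamine phosphotransferase that forms the ethanolamine ether lipids, was at 8.24 CPM in pre-treated mouse 2 and at 46.2 to 71.3 CPM in the other 8 mice of that experiment. Among the delayed mice it was at 6.72 to 12.1 CPM in 7 mice and at 37.2 to 79.2 CPM in 5. The low mice were all 3 given irisin alone, control mouse 2, MPTP mouse 1 and mice 2 and 3 given MPTP and then irisin, and no comparison passed the adjusted threshold.

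Pafah1b1 was at 186 to 206 CPM in 3 mice of the pre-treatment experiment, MPTP mouse 3 and pre-treated mice 2 and 3, and at 695 to 822 CPM in the other 6. Among the delayed mice it was at 127 CPM in mouse 3 given MPTP and then irisin and at 529 to 628 CPM in the other 11. Cept1 stood at 23.1 CPM in MPTP mouse 1 of the delayed experiment and at 39.7 to 51.2 CPM in the other 11 mice. Pafah2 was at 4.18 CPM in 1 mouse of that experiment and at 7.06 to 10.5 CPM in the other 11. Pla2g1b, the pancreatic type of secreted phospholipase A2, had at most 4 counts in any mouse of the pre-treatment experiment. It was at 0.00 and 0.07 CPM in mice 2 and 3 given irisin alone and at 4.20 to 32.5 CPM in the other 10 mice of the delayed experiment. Lpcat1 was the only member whose step in the delayed experiment split the 6 mice with irisin (12.6 to 15.2 CPM) from the 6 without (24.1 to 34.8 CPM), a split that includes the contrast behind the choice of the pathway.

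**Figure D5:**
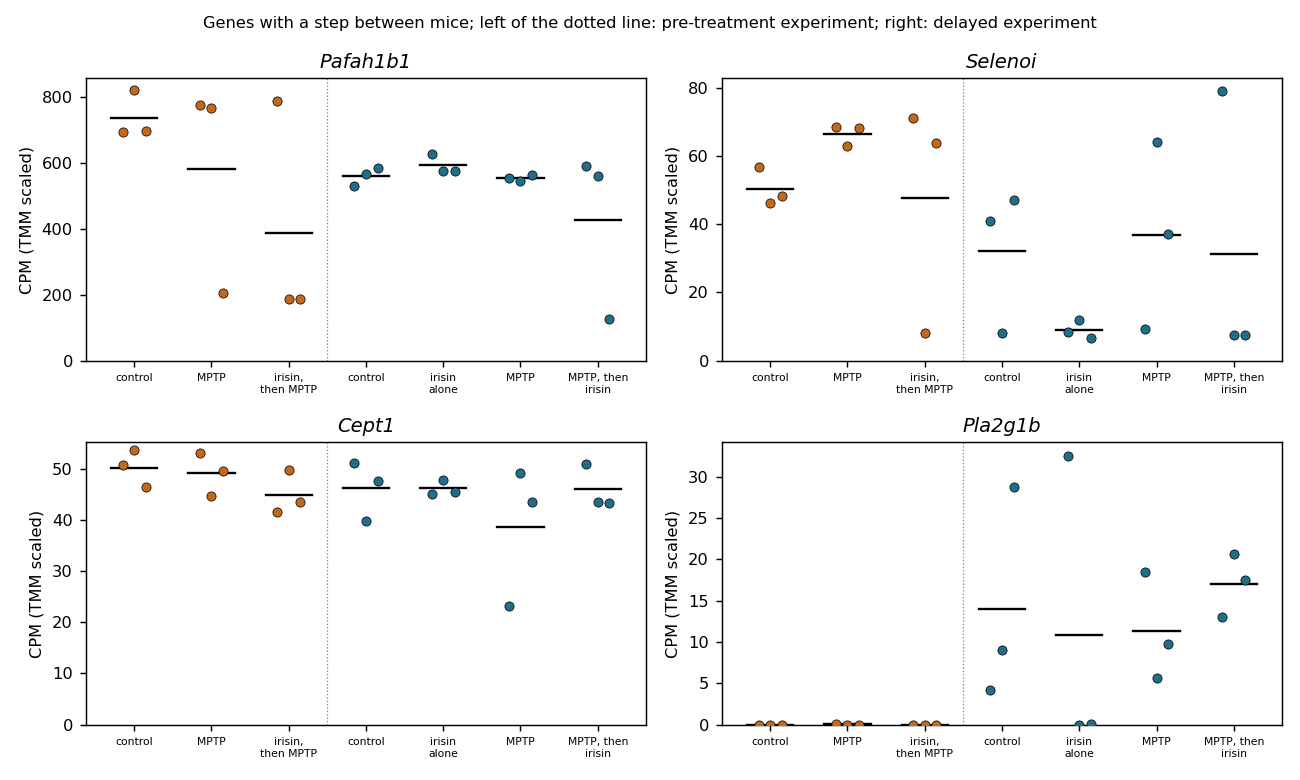
Pafah1b1, Selenoi, Cept1 and Pla2g1b in each of the 21 mice (points, TMM scaled CPM) with group means (bars). Low values of Pafah1b1 (127 to 206 CPM), Selenoi (6.72 to 12.1 CPM) and Cept1 (23.1 CPM) fall in mice of several groups, for Selenoi in all 3 given irisin alone, and Pla2g1b has at most 4 counts in any mouse of the pre-treatment experiment.

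Pla2g4b overlaps another gene model on the same strand, with which it may share reads. It was at 6.62 CPM in MPTP mouse 2 of the pre-treatment experiment, where the readthrough gene Gm28042 was at 1.85 CPM, and at 0.32 CPM in MPTP mouse 3, where Gm28042 was at 4.97 CPM. Of the delayed mice, it was at 0.16 CPM in mouse 2 given MPTP and then irisin, beside 3.04 CPM of Gm28042, and at 5.60 CPM in MPTP mouse 1, beside 0.9988 CPM. The sum of both genes was 5.29 to 8.47 CPM and 3.20 to 7.19 CPM, so the log2 fold changes of Pla2g4b, -0.65 to 0.86, are uncertain.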

How the data were processed

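The authors extracted total RNA from 21 midbrain samples, sequenced it on an Illumina NovaSeq instrument and counted reads per gene with featureCounts. The deposited tables hold these counts, not normalized, and FPKM values that the authors computed per gene, with 0 written as 0.0001 in the delayed table and set to 0 here. The submitters' processing notes name HISAT, StringTie and edgeR without versions or roles, and the build mm9, while the coordinates in the files are those of GRCm38. The annotation and the use of strand are not given in the sources used here. Low counts are in excess at 4 and 8, the values examined, as if 1 fragment could add several counts. Their error may thus not be that of independent counts, and the cause of the excess was not tested.

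The members and gene lists were chosen with earlier results of these data known. Each experiment was fitted on its own with edgeR 4.0.16 in R 4.3.3 (TMM scaling, genes kept by filterByExpr at minimum counts of 10 and, summed, 15, quasi-likelihood test over all groups of that experiment, two-sided), with Benjamini-Hochberg adjustment over 22641 and 21922 genes and a threshold of 0.05. Each group had 3 mice, and the p-values measure the spread between these mice. Alternatives were DESeq2 1.42.0, limma 3.58.1 on log2(FPKM + 1) and log2(FPKM + 0.1), median ratio scaling, no filter on low counts, only the groups compared, a replicate block and each mouse left out. Leaving out mice with choroid plexus markers over 1000 CPM and dividing counts by 4 were added after seeing the data. Genes were named if they had an unadjusted p under 0.05 in a tested comparison or in the contrast behind the choice, the highest mean FPKM of their role, or 1 of the 3 highest or lowest log2 fold changes among members with a mean of at least 0.5 FPKM over the 21 mice, and the genes in the paragraphs on steps, shared reads and roles were added after their values were seen. Promoter sequence came from RefSeq. Tables were handled and figures drawn with Python 3.11.15, pandas 2.3.3, numpy 2.4.6 and matplotlib 3.10.9.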

Additional observations from a re-analysis of the deposited data

Results flagged for a closer look

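Pla2g4d had log2 fold changes of opposite sign with irisin in the delayed experiment. They were -4.11 for irisin alone against control and 1.25 for delayed irisin after MPTP against MPTP. The second value did not reach an unadjusted p under 0.05 in edgeR. In each case the groups did not overlap, and the share of all genes without overlap was not counted. The counts were 31, 20 and 19 in controls, 4, 0 and 0 with irisin alone, 4, 4 and 4 with MPTP and 8, 8 and 8 with MPTP and then irisin. The difference between these effects was not tested. Counts of 4 and 8 are in excess in these libraries, so such values may stand for a few fragments. The second contrast is the one behind the choice of the pathway.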

How the results depend on the processing

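Members past the adjusted threshold numbered 1 with DESeq2 in MPTP against control, irisin before MPTP against MPTP and against control, delayed irisin after MPTP against MPTP and delayed MPTP against control, and 3 in irisin alone against control, where DESeq2 called 0.169% to 0.957% of all genes. With all genes of any count there was 1 in delayed irisin after MPTP against MPTP (0.00597% of all genes). Without the mice with high choroid plexus markers there were 0 in irisin alone (0.104% of all genes) and 0 in delayed irisin after MPTP against control (0.113%), with 1 control mouse left, whose spread was taken as that of the other groups. At an unadjusted p under 0.05, MPTP against control of the pre-treatment experiment held 3 members with limma at either pseudocount (6.43% of all genes), with only the 2 groups compared (4.53%), without the mice with high choroid plexus markers (5.11%) and with counts divided by 4 (6.69%), and irisin before MPTP against MPTP held 2 with limma at either pseudocount (6.73% and 6.74%). With only the 2 groups, irisin alone held 7 (7.52%) and delayed MPTP against control 3 (8.79%). The median log2 fold change without the mice with high choroid plexus markers was -0.087 for MPTP, -0.047 for irisin before MPTP against MPTP and -0.12 for delayed irisin after MPTP against MPTP, and with counts divided by 4 it was -0.068 for irisin before MPTP against MPTP. The causes were not tested.

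With each mouse left out in turn, unadjusted counts ranged from 2 to 8 for MPTP, 2 to 5 and 2 to 9 for irisin before MPTP against MPTP and against control, 4 to 8 for irisin alone, 3 to 9 for delayed irisin after MPTP against MPTP, 2 to 8 for delayed MPTP and 2 to 4 for delayed irisin after MPTP against control. Adjusted counts ranged from 1 to 2 for irisin alone, from 0 to 1 for delayed irisin after MPTP against MPTP, were 1 to 1 for delayed irisin after MPTP against control and 0 to 0 for the others. Medians ranged from -0.087 to 0.060, -0.091 to -0.030, -0.13 to -0.0049, -0.088 to -0.016, -0.079 to -0.025, -0.043 to 0.013 and -0.081 to -0.030 in the same order. In MPTP against control, leaving out control mouse 2 gave 8 and leaving out MPTP mouse 2 or 3 gave 3 or 2, and leaving out control mouse 2 of the delayed experiment gave 8 in irisin alone. Of all genes, 3.31% to 10.4% had an unadjusted p under 0.05 in these fits, and 0.00441% to 0.154% passed the adjusted threshold. Leaving out pre-treated mouse 2 or 3 gave 2 against MPTP, and mouse 3 gave 2 against control. In delayed irisin after MPTP against MPTP, leaving out MPTP mouse 1 gave 3, and MPTP mouse 3 or mouse 1 or 3 with irisin gave 5. In delayed MPTP against control, MPTP mice 1, 2 and 3 gave 2, 3 and 8 and control mouse 3 gave 3.

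Mice of one number were different animals, and their deviations were only weakly correlated (-0.08 to 0.10 and -0.08 to 0.04). Groups of 3 mice are too small for these values to tell whether such mice shared a preparation, which was not tested. With a replicate block the unadjusted counts were 4, 3, 5, 4, 6, 5 and 3 and the adjusted counts 0, 0, 0, 1, 0, 0 and 1 in the same order, and no count moved by over 1.5 times. The shares of all genes with this block were 3.51% to 8.21% unadjusted and 0.00456% to 0.0775% adjusted. Pla2g4d, Pla2g10 and Plb1 rest on at most 47 counts in any mouse.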
